A study of Homo sapiens with 12 samples.

Results

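Extracellular matrix and mesenchymal genes were followed in HT1080 fibrosarcoma cells in which the SP140 locus was silenced and which were given interferon beta (IFNB). The set was a list of 44 symbols, chosen with earlier results of these data known. It covered matrix proteins, matrix-processing enzymes and mesenchymal genes. All 44 were found among the 60669 gene identifiers of the deposited count table. HT1080 is an established human line grown from a fibrosarcoma, a tumour of connective tissue. All cells carried a stably expressed dCas9, the catalytically dead Cas9 of CRISPR interference, kept under blasticidin, and a guide RNA kept under puromycin. The LTR8B cells held a guide against an LTR8B retroviral repeat in the first intron of SP140, and the GFP cells held a control guide against GFP. There were 4 LTR8B libraries with IFNB, 2 GFP libraries with IFNB, 4 untreated LTR8B libraries and 2 untreated GFP libraries. IFNB was given at 10 U/mL for 4 h, and untreated cells got none. The labels do not say whether a line was 1 clone or a pool, how many guides were used, or whether each replicate was a culture of its own. The p-values therefore reflect library-to-library spread alone, which may be technical.

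Fibroblast-like cells secrete collagens, laminins, fibronectin and other glycoproteins that assemble outside the cell into fibres and basement membranes. Chaperones and crosslinking enzymes shape the collagens, matricellular proteins such as thrombospondins and CCN proteins bind both matrix and cell receptors, and the urokinase system and matrix metalloproteinases break the matrix down under the control of TIMP inhibitors. SNAI, TWIST and ZEB factors are transcription factors that hold cells in a mesenchymal state by repressing epithelial genes.

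SP140, the target of the LTR8B guide, was at 1.48, 1.07, 1.46 and 0.901 CPM (counts scaled to a library of 1e+06) in LTR8B cells with IFNB, against 32.0 and 29.8 CPM in GFP cells with IFNB. Without IFNB it was at 1.84, 0.515, 1.51 and 1.13 CPM in LTR8B cells, against 30.8 and 29.8 CPM in GFP cells. No LTR8B library reached any GFP library, and the log2 fold change over both treatments was -4.61 (SE 0.17, adjusted p = 1.40e-11).

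Total counts ran from 12404270 to 28801579 per library, so that a count of 0 allows up to 3 counts, or 0.104 to 0.242 CPM. CPM are scaled by the trimmed mean of M values (TMM), and adjusted p-values are from edgeR's quasi-likelihood test with Benjamini-Hochberg adjustment over 16393 tested genes, with 0.05 as the threshold. Of the 44 members 43 were tested, and COL3A1, with 8 counts in the 12 libraries together, was not. Libraries with the same replicate number deviated together across treatments in LTR8B cells (r = 0.408, 0.527, 0.140 and 0.417 over 11058 genes). The 8 LTR8B libraries therefore behaved more as same-numbered pairs than as 8 independent samples. The pairing was weakest for replicate 3, whose untreated library had r = 0.155 with IFNB replicate 4. Its IFNB library had its highest r, 0.140, with its own number. A fit that keeps same-numbered libraries of a guide together as a random block is called the block fit below. Its adjusted p is given where it ends a guide call over both treatments. Unless a block is named, SE, intervals and adjusted p treat the 12 libraries as independent, which may make guide effects look more certain. A fit that leaves out 1 LTR8B library still keeps the library paired with it.

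Levels of different members are compared per kilobase of transcript (CPM per kb). VIM, the mesenchymal intermediate filament vimentin, came highest at 1623 ± 133 CPM per kb (SD over 12 libraries). MMP14, a membrane-bound metalloproteinase that cleaves collagen and activates MMP2, followed at 518 ± 31.6 CPM per kb, PLAU (urokinase) at 297 ± 40.5, the matricellular protein CCN1 at 211 ± 37.5 and LAMB3, the beta chain of laminin-332, at 142 ± 19.7 CPM per kb. The ranges of MMP14 and PLAU did not overlap, while those of PLAU and CCN1 met, and the highest LAMB3 library (185 CPM per kb) exceeded the lowest CCN1 library (162 CPM per kb).

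Fibrillar collagens, the main load-bearing fibres of connective tissue, were scarce, and 4 of the 5 had the lowest levels of all members. COL5A1 was at 1.61 ± 0.227 CPM per kb, COL1A1 at 0.276 ± 0.0798, COL5A2 at 0.271 ± 0.0643 and COL1A2 at 0.0913 ± 0.0379 CPM per kb. The levels of COL1A1 and COL5A2 did not differ beyond their spread. COL3A1 was listed at 0 in 7 of the 12 libraries and did not exceed 0.143 CPM. The 44 members together took 1.18% to 1.30% of all scaled counts, with 28.03% of that sum in VIM, 15.6% in MMP14 and 7.94% in COL6A3, the long chain of microfibrillar collagen VI.

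**Figure D1:**
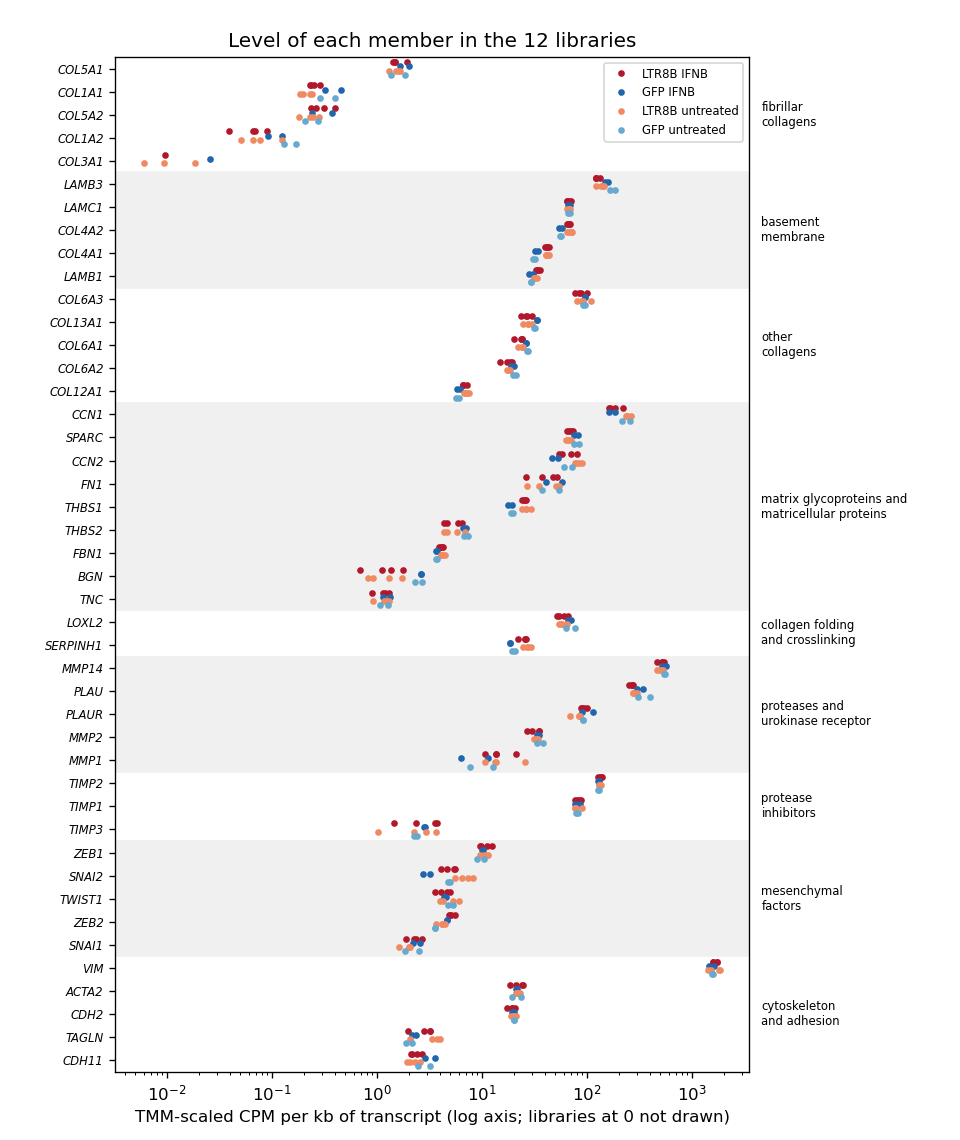
Level of the 44 members in each of the 12 libraries, in TMM-scaled CPM per kb of transcript on a log axis, grouped by role, with 1 point per library coloured by guide and treatment. VIM is near 1623 CPM per kb and the fibrillar collagens reach at most 2.04 CPM per kb. Libraries at 0 are not drawn.

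The guide effect, LTR8B over GFP averaged over both treatments, moved matrix genes in both directions. Of 43 tested members 13 passed the threshold, or 30.2%, where 2.14% of all tested genes did. The members were chosen with earlier results of these data known, which may raise such shares. Shares of members set beside those of all genes, here and below, therefore do not show that matrix genes were over-represented. COL4A1, COL4A2, COL12A1, THBS1, SERPINH1 and SNAI2 rose, which is 6 members where 1.15% of all tested genes rose, and BGN, COL1A1, CDH11, LAMB3, PLAU, COL13A1 and SPARC fell, which is 7 members where 0.994% of all tested genes fell. The median log2 fold change of the members was -0.03, against 0.00 for all tested genes. The members were also more abundant than most genes, with a median of 80.6 CPM against 17.8 CPM for all tested genes. Among genes at 10 CPM or more, a limit set after the values were seen, 11 of 35 members (31.4%) and 2.45% of 9680 genes passed. In the block fit (limma-voom) 8 members passed, all of them among the 13, where 1.11% of all tested genes did, and COL12A1 (adjusted p = 0.0788), COL13A1 (0.0655), COL1A1 (0.128), SPARC (0.0614) and CDH11 (0.0751) did not. With GFP untreated replicate 2 left out 5 members passed in edgeR, where 0.544% of all tested genes did. With GFP IFNB replicate 2 left out 6 members and 0.892% of genes passed, and with GFP IFNB replicate 1 left out 8 members and 1.04% of genes. The 30 members that did not pass had log2 fold changes from -0.80 for COL1A2 to 0.69 for MMP1. In bulk RNA, a smaller share of cells making a transcript and less transcript per cell cannot be told apart.

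**Figure D2:**
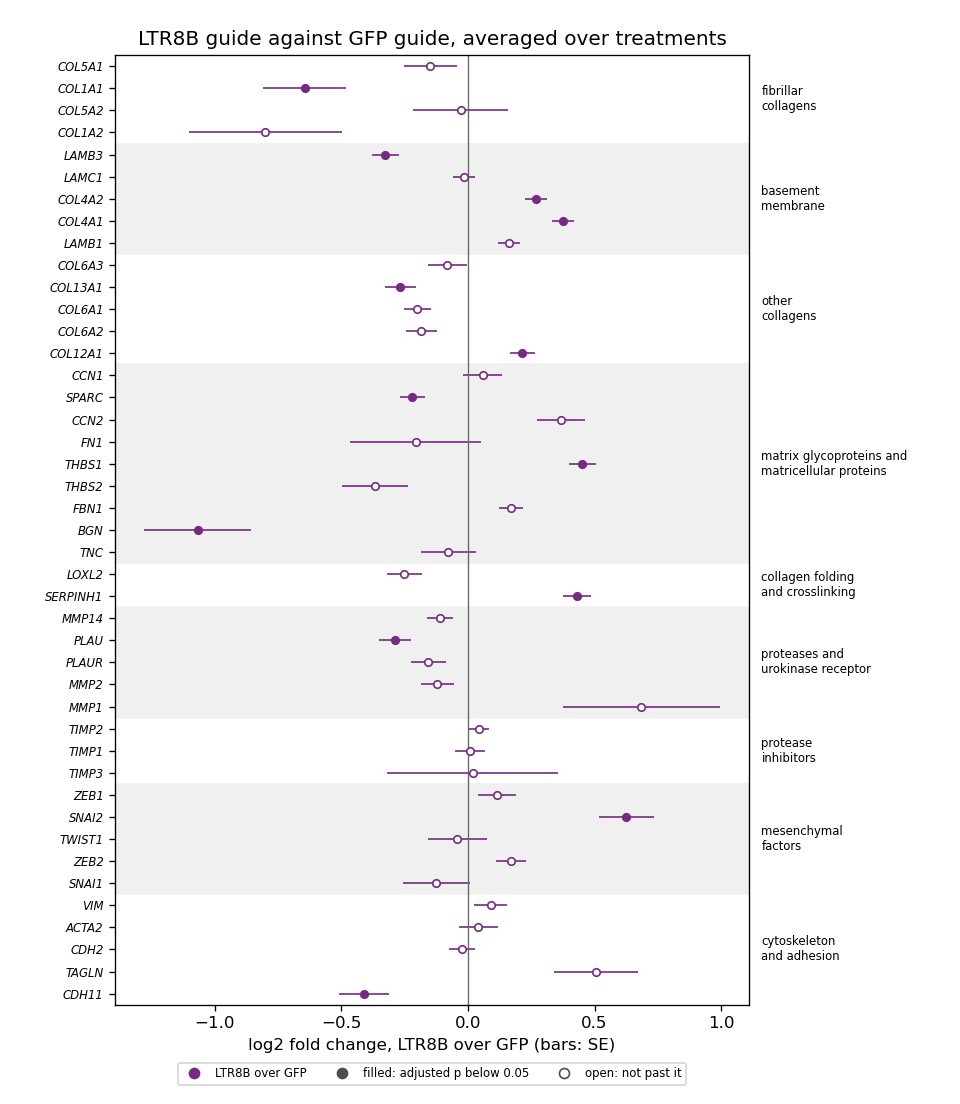
log2 fold change of LTR8B over GFP cells for the 43 tested members, averaged over IFNB and untreated libraries, with bars for the SE and filled points past adjusted p 0.05. Filled points run from -1.07 for BGN to 0.63 for SNAI2, on both sides of 0 in basement membrane proteins, other collagens and matrix glycoproteins.

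In the basement membrane group, both chains of type IV collagen rose while LAMB3 fell. COL4A1 (chr13:110148963-110307233, hg38) encodes the alpha-1 chain of the collagen network that underlies epithelia and vessels. It was at 278, 276, 264 and 288 CPM in LTR8B cells with IFNB, against 214 and 226 CPM in GFP cells with IFNB. Without IFNB it was at 271, 268, 284 and 289.9 CPM in LTR8B cells, against 213 and 202 CPM in GFP cells. The groups did not overlap in either treatment, and the log2 fold change was 0.38 (SE 0.04, adjusted p = 1.05e-04), a 1.30-fold higher level.

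COL4A2 (chr13:110305812-110513209) encodes the partner chain, which joins COL4A1 in the same trimer. It was at 446, 438, 428 and 416 CPM in LTR8B cells with IFNB, against 375 and 352 CPM in GFP cells with IFNB, and at 438, 464, 417 and 458 CPM in untreated LTR8B cells, against 367 and 358 CPM in untreated GFP cells. Again no library of one guide fell in the range of the other, and the log2 fold change was 0.27 (SE 0.04, adjusted p = 0.0028). Both calls passed in each of the 12 fits that left out 1 library. The annotated COL4A1 and COL4A2 models overlap on opposite strands and the labels do not state whether strand was used in the counting. If strand was not used, reads from the shared stretch could not be told apart between the 2 genes.

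The stretch between the 2 genes is shown because both chains rose. Their RefSeq start sites on GRCh38.p14 lie apart by the 126 bases at chr13:110307158-110307283, printed below on the plus strand from the COL4A1 start to the COL4A2 start, with a CCAAT box (CCAAT) and a GC box (GGGCGG) in capitals.
COL4A1 and COL4A2: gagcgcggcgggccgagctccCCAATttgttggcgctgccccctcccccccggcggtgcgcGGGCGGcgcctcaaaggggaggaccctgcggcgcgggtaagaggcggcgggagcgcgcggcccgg
Both motifs were searched on both strands in the 250 bases before each start. Of the 29 members with a RefSeq promoter window, 22 held GGGCGG and 11 held CCAAT, where 46.2% and 37.0% of the 27305 genes in the table did. These letters are common in promoters and say nothing of binding.

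Per kilobase, COL4A2 stood above COL4A1 in every library. The ratio of COL4A2 to COL4A1 levels was 1.59 ± 0.0830 in LTR8B cells with IFNB (SD, n = 4) and 1.69 ± 0.141 in GFP cells with IFNB (n = 2), and 1.63 ± 0.108 in untreated LTR8B cells and 1.78 ± 0.0338 in untreated GFP cells. The ranges of the guides overlapped in both treatments, and the ratios were not tested.

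LAMB3 (chr1:209614870-209652466), a chain of the laminin that anchors epithelial cells, was the most abundant member of the group per kilobase. It was at 572, 529.8, 531 and 529.5 CPM in LTR8B cells with IFNB, against 676 and 645 CPM in GFP cells with IFNB. Its untreated levels were 582, 626, 521 and 606 CPM in LTR8B cells, against 708 and 795 CPM in GFP cells. Every LTR8B library lay below every GFP library of its treatment (log2 fold change -0.33, SE 0.05, adjusted p = 0.00235). That call missed the threshold, at 0.0520, once GFP untreated replicate 2 was left out. The per-kilobase ratio of LAMC1 to LAMB1 was 1.97 ± 0.0195 in LTR8B cells with IFNB and 2.31 ± 0.200 in GFP cells with IFNB, and 2.10 ± 0.0330 in untreated LTR8B cells and 2.31 ± 0.0641 in untreated GFP cells (SD, n = 4 and 2). Its guide groups did not overlap in either treatment, and it was not tested. LAMB1 was at 202, 195, 190.5 and 189 CPM in LTR8B cells with IFNB, against 176 and 161 CPM in GFP cells with IFNB, and its groups did not overlap. LAMB1 and LAMC1, chains of the more widespread laminins, did not pass, with log2 fold changes of 0.16 (adjusted p = 0.0610) and -0.02 (adjusted p = 0.900).

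SERPINH1 (chr11:75562056-75572783), the endoplasmic reticulum chaperone HSP47 that folds procollagen, rose. It was at 86.9, 88.5, 87.9 and 75.3 CPM in LTR8B cells with IFNB, against 62.6 and 63.1 CPM in GFP cells with IFNB. Untreated, it was at 90.8, 99.1, 92.6 and 84.1 CPM in LTR8B cells, against 66.1 and 69.7 CPM in GFP cells. The groups did not overlap, and the log2 fold change was 0.43 (SE 0.06, adjusted p = 3.78e-04), also past the threshold in every fit without 1 library. LOXL2, a lysyl oxidase-like enzyme that crosslinks collagen IV, was at 232, 192, 216 and 186 CPM in LTR8B cells with IFNB, against 233 and 249.8 CPM in GFP cells with IFNB, and at 229.7, 199, 205 and 193 CPM in untreated LTR8B cells, against 226 and 274 CPM in untreated GFP cells. The untreated groups overlapped, and its log2 fold change of -0.25 missed the threshold (SE 0.07, adjusted p = 0.0706).

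Among matrix glycoproteins and matricellular proteins, THBS1 rose and BGN and SPARC fell. THBS1 (chr15:39581079-39599466), thrombospondin-1, which binds CD47 and activates latent TGF-beta, was at 205, 196, 198 and 185 CPM in LTR8B cells with IFNB, against 151 and 139 CPM in GFP cells with IFNB. In untreated cells it was at 206, 229, 204 and 186 CPM in LTR8B cells, against 153 and 147 CPM in GFP cells. All 8 LTR8B libraries exceeded all 4 GFP libraries (log2 fold change 0.45, SE 0.05, adjusted p = 1.53e-04, past the threshold in every fit without 1 library). Its relative THBS2, at 34.4, 26.8, 37.2 and 25.3 CPM in LTR8B cells with IFNB, against 41.2 and 38.3 CPM in GFP cells with IFNB, had the opposite sign and did not pass, at -0.37 (SE 0.13, adjusted p = 0.186).

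BGN (chrX:153494939-153509554), the small proteoglycan biglycan that decorates collagen fibrils, had the largest fold change of the members past the threshold, at a low level. It was at 4.24, 2.66, 3.25 and 1.64 CPM in LTR8B cells with IFNB, against 6.25 and 6.27 CPM in GFP cells with IFNB. Without IFNB it was at 4.20, 2.21, 3.15 and 1.95 CPM in LTR8B cells, against 5.56 and 6.45 CPM in GFP cells. The groups did not overlap although the LTR8B libraries themselves spanned more than 2-fold (log2 fold change -1.07, SE 0.21, adjusted p = 0.0156). The call ended without GFP IFNB replicate 1 (adjusted p = 0.0637), GFP IFNB replicate 2 (0.0732) or GFP untreated replicate 2 (0.0978).

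SPARC (chr5:151661096-151687165), a collagen-binding glycoprotein, was at 273, 239.6, 259 and 249 CPM in LTR8B cells with IFNB, against 279.7 and 302 CPM in GFP cells with IFNB. Its untreated levels were 262, 235, 246 and 247 CPM in LTR8B cells, against 276 and 312 CPM in GFP cells. The groups lay close but did not overlap (log2 fold change -0.22, SE 0.05, adjusted p = 0.0289). The call ended in 6 of the 12 fits without 1 library, with a largest adjusted p of 0.279 without GFP untreated replicate 2, and in the block fit (0.0614). CCN2, a growth-factor-binding matricellular protein, was at 165, 126, 136 and 187 CPM in LTR8B cells with IFNB, against 109 and 123 CPM in GFP cells with IFNB. Its guide groups did not overlap in either treatment, yet its log2 fold change of 0.37 missed the threshold (SE 0.10, adjusted p = 0.0768). FBN1, the fibrillin-1 of elastic microfibrils, was at 50.01, 48.7, 46.3 and 47.9 CPM in LTR8B cells with IFNB, against 43.2 and 44.1 CPM in GFP cells with IFNB. Its groups did not overlap, and it too missed the threshold (log2 fold change 0.17, adjusted p = 0.0824). FN1 (fibronectin), TNC (tenascin-C) and CCN1 had adjusted p of 0.765, 0.789 and 0.773.

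In the fibrillar collagens the 4 tested members all had negative log2 fold changes, and 1 passed. COL1A1 (chr17:50183289-50201632), the main chain of type I collagen, was at 1.94, 1.59, 1.71 and 1.54 CPM in LTR8B cells with IFNB, against 2.15 and 3.03 CPM in GFP cells with IFNB. Untreated, it was at 1.61, 1.24, 1.34 and 1.54 CPM in LTR8B cells, against 1.93 and 2.69 CPM in GFP cells. The groups did not overlap, but the log2 fold change of -0.64 (SE 0.16, adjusted p = 0.0492) sat at the threshold and it no longer passed in any of the 12 fits that left out a library (up to adjusted p = 0.336, GFP untreated replicate 2 left out) or under DESeq2 (adjusted p = 0.0606), limma-voom (0.0576) and the block fit (0.128). COL1A2, its partner chain, had 0.357, 0.374, 0.488 and 0.212 CPM in LTR8B cells with IFNB, against 0.667 and 0.497 CPM in GFP cells with IFNB, and its log2 fold change of -0.80 did not pass (SE 0.30, adjusted p = 0.192). COL5A2 had a log2 fold change of -0.03 (adjusted p = 0.965).

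COL5A1, the most abundant fibrillar chain per kilobase, which sets the diameter of type I fibrils, was at 16.2, 11.96, 12.6 and 12.6 CPM in LTR8B cells with IFNB, against 14.1 and 17.3 CPM in GFP cells with IFNB. Untreated it was at 14.2, 11.1, 12.9 and 13.7 CPM in LTR8B cells, against 11.6 and 15.7 CPM in GFP cells. The groups overlapped in both treatments, and the log2 fold change of -0.15 had a 95% interval from -0.37 to 0.07.

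Of the other collagens, COL12A1 rose and COL13A1 fell. COL12A1 (chr6:75084326-75206051), which lies on the surface of fibrils, was at 76.8, 83.7, 76.9 and 77.0 CPM in LTR8B cells with IFNB, against 68.3 and 72.0 CPM in GFP cells with IFNB, and at 85.2, 87.4, 80.1 and 79.5 CPM in untreated LTR8B cells, against 71.5 and 66.6 CPM in untreated GFP cells. COL13A1 (chr10:69801867-69964275), a transmembrane collagen, was at 95.2, 85.8, 75.6 and 83.01 CPM in LTR8B cells with IFNB, against 107 and 105 CPM in GFP cells with IFNB, and at 96.1, 88.4, 87.8 and 78.1 CPM in untreated LTR8B cells, against 101 and 103 CPM in untreated GFP cells. Neither gene's groups overlapped. The log2 fold changes were 0.22 for COL12A1 (SE 0.05, adjusted p = 0.0286) and -0.27 for COL13A1 (SE 0.06, adjusted p = 0.0282), and each call ended in 6 of 12 fits without 1 library, with a largest adjusted p without GFP untreated replicate 2 (0.238 for COL12A1 and 0.162 for COL13A1). The block fit ended both calls (adjusted p = 0.0788 for COL12A1 and 0.0655 for COL13A1).

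The 3 chains of collagen VI, which form beaded microfilaments, did not pass. COL6A3 was at 939.9, 908, 835 and 1070.3 CPM in LTR8B cells with IFNB, against 1032 and 1021 CPM in GFP cells with IFNB, and at 987, 934, 857 and 1172 CPM in untreated LTR8B cells, against 1042 and 977 CPM in untreated GFP cells. The GFP libraries lay inside the LTR8B range in both treatments. COL6A1 was at 102, 100.3, 102 and 85.7 CPM in LTR8B cells with IFNB, against 112 and 112 CPM in GFP cells with IFNB. COL6A1 and COL6A2 had log2 fold changes of -0.20 (adjusted p = 0.0597) and -0.18 (adjusted p = 0.133). The per-kilobase ratio of COL6A1 to COL6A2 was 1.32 ± 0.0484 in LTR8B cells with IFNB and 1.35 ± 0.0713 in GFP cells with IFNB, and 1.33 ± 0.0758 in untreated LTR8B cells and 1.33 ± 0.0673 in untreated GFP cells (SD, n = 4 and 2). These ratios differed by less than their spread.

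In the proteolytic group 1 of 5 members passed and none of the 3 inhibitors did. PLAU (chr10:73909177-73917497), the urokinase that converts plasminogen to plasmin, was at 641, 617, 622 and 587 CPM in LTR8B cells with IFNB, against 696 and 791 CPM in GFP cells with IFNB. In untreated cells it was at 687, 701, 636 and 639 CPM in LTR8B cells, against 717 and 929.9 CPM in GFP cells. The groups did not overlap, and PLAU fell by 0.29 on the log2 scale (SE 0.06, adjusted p = 0.0200). The call ended without GFP IFNB replicate 2 (adjusted p = 0.122) or GFP untreated replicate 2 (0.245). PLAUR, the urokinase receptor, also had a negative log2 fold change but did not pass (-0.16, SE 0.07, adjusted p = 0.280).

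MMP14 was at 1939, 1924, 2032 and 1739 CPM in LTR8B cells with IFNB, against 2106 and 1954 CPM in GFP cells with IFNB, and at 1825, 1966, 1907 and 1736 CPM in untreated LTR8B cells, against 2011 and 2061 CPM in untreated GFP cells. The IFNB groups overlapped, the untreated ones did not, and the log2 fold change of -0.11 did not pass (95% interval -0.22 to -0.0048, adjusted p = 0.291). TIMP2, the inhibitor that also docks pro-MMP2 to MMP14, was at 485, 497, 509 and 461 CPM in LTR8B cells with IFNB, against 472 and 464 CPM in GFP cells with IFNB, and at 472, 494, 484 and 471 CPM in untreated LTR8B cells, against 463 and 479.7 CPM in untreated GFP cells. The groups overlapped, and its 95% interval ran from -0.04 to 0.13 on the log2 scale. TIMP1 had a log2 fold change of 0.01 (95% interval -0.11 to 0.13). The per-kilobase ratio of TIMP2 to MMP14 was 0.262 ± 0.0074 in LTR8B cells with IFNB and 0.236 ± 0.0096 in GFP cells with IFNB, and 0.265 ± 0.0091 in untreated LTR8B cells and 0.236 ± 0.0020 in untreated GFP cells. The LTR8B ratios all lay above the GFP ratios of their treatment, a difference that was not tested. MMP2, the gelatinase that MMP14 activates, had a log2 fold change of -0.12 (adjusted p = 0.384).

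Of the mesenchymal transcription factors SNAI2 (Slug) passed. It was at 13.2, 11.3, 9.92 and 13.5 CPM in LTR8B cells with IFNB, against 6.67 and 7.76 CPM in GFP cells with IFNB. Without IFNB it was at 17.9, 13.5, 15.7 and 20.004 CPM in LTR8B cells, against 11.5 and 12.1 CPM in GFP cells. LTR8B libraries lay above GFP libraries within each treatment (log2 fold change 0.63, SE 0.11, adjusted p = 0.0051, past the threshold in every fit without 1 library). ZEB1, the most abundant of these factors per kilobase, was at 52.7, 60.2, 52.1 and 68.1 CPM in LTR8B cells with IFNB, against 54.1 and 55.1 CPM in GFP cells with IFNB, and at 56.8, 51.4, 60.9 and 61.9 CPM in untreated LTR8B cells, against 56.9 and 48.4 CPM in untreated GFP cells. Those groups overlapped (log2 fold change 0.11, adjusted p = 0.493). SNAI1, TWIST1 and ZEB2 did not pass, with adjusted p of 0.704, 0.904 and 0.156.

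Of the cytoskeletal and adhesion genes CDH11 (chr16:64943753-65126112), the mesenchymal cadherin-11, fell. It was at 16.4, 14.8, 18.3 and 14.6 CPM in LTR8B cells with IFNB, against 19.9 and 24.6 CPM in GFP cells with IFNB, and at 15.6, 13.3, 17.8 and 14.3 CPM in untreated LTR8B cells, against 16.8 and 22.0 CPM in untreated GFP cells. The untreated groups overlapped, and the call (log2 fold change -0.41, SE 0.10, adjusted p = 0.0370) ended in 7 of 12 fits without 1 library, with a largest adjusted p of 0.308 without GFP untreated replicate 2, and in the block fit (0.0751). VIM was at 3379, 3726, 3404 and 3698 CPM in LTR8B cells with IFNB, against 3455 and 3073 CPM in GFP cells with IFNB, and at 3238, 3826, 3063 and 3953 CPM in untreated LTR8B cells, against 3407 and 3349 CPM in untreated GFP cells. These ranges overlapped, with a 95% interval from -0.05 to 0.23 on the log2 scale. ACTA2 (smooth muscle actin) and CDH2 (N-cadherin) had log2 fold changes of 0.04 and -0.02 and did not pass.

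**Figure D3:**
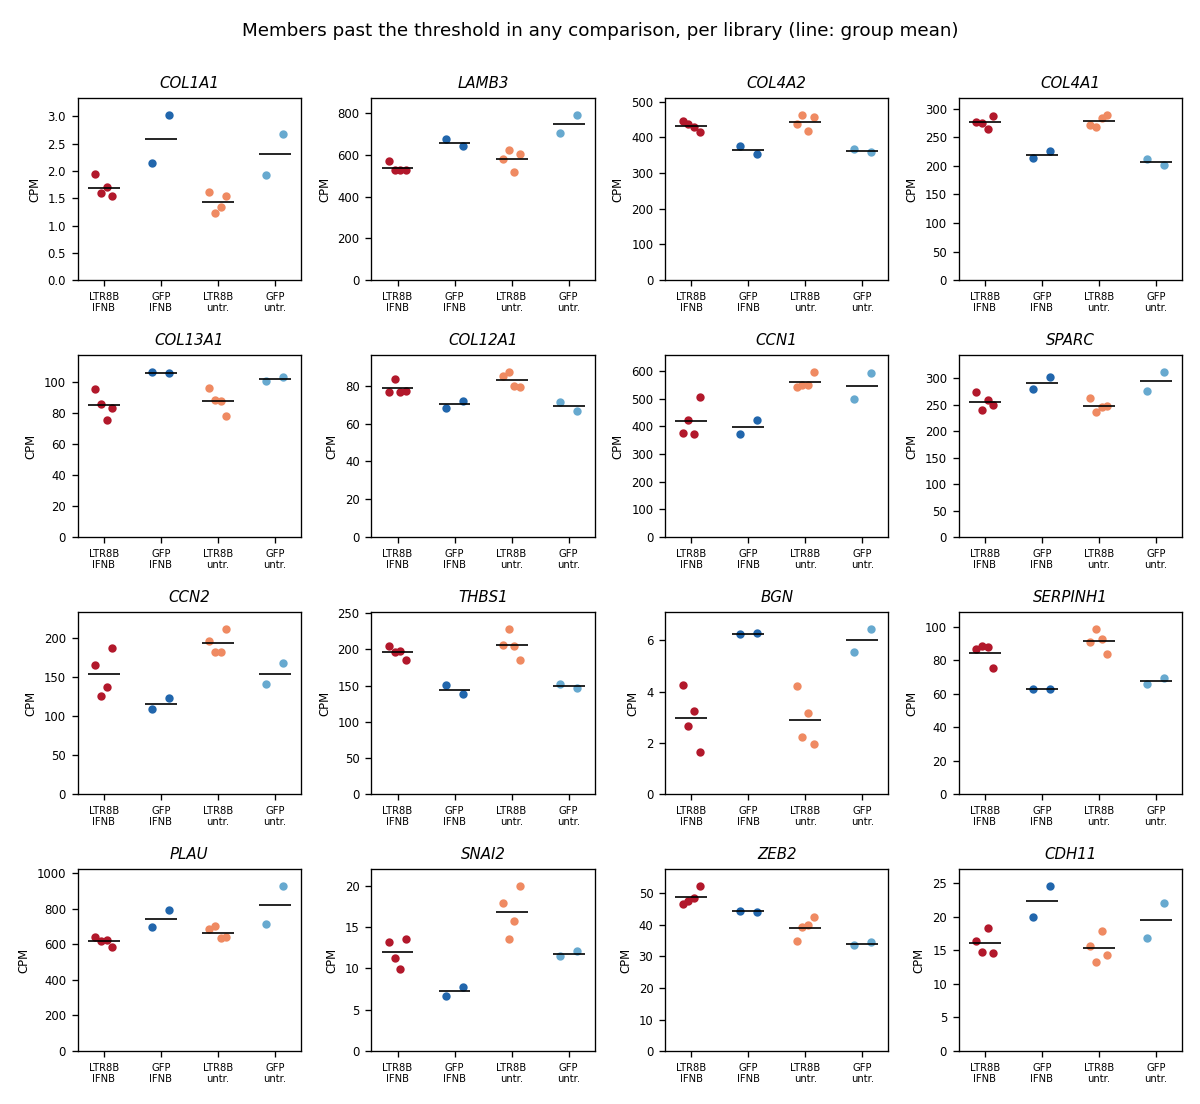
CPM per library, on axes from 0, of the 16 members past adjusted p 0.05 in at least 1 comparison, with a line at each group mean. For COL4A1 the LTR8B libraries lie between 264 and 289.9 CPM and the GFP libraries between 202 and 226 CPM.

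Within 1 treatment fewer members passed. In untreated cells COL4A1, THBS1 and SERPINH1 rose, 3 members where 0.244% of all tested genes rose, and LAMB3 fell, 1 member where 0.116% fell, which makes 4 of 43 against 0.36% in all. That LAMB3 call ended in 6 of the 8 fits that left out 1 LTR8B library. The untreated calls of COL4A1, THBS1 and SERPINH1 ended in 0 of those fits. With IFNB COL4A1, THBS1 and SERPINH1 rose, 3 members where 0.232% of all tested genes rose, and 0 fell in edgeR, where 0.122% fell, which makes 3 of 43 against 0.354% in all. With IFNB 17 members had an unadjusted p under 0.05, where 9.48% of all tested genes had, and DESeq2 called 6, 1 of them lower, where it called 0.732% of all tested genes. In untreated cells 0 members passed with GFP untreated replicate 2 left out (0.129% of all tested genes) and 2 with GFP untreated replicate 1 left out (0.199%). With IFNB 0 passed with GFP IFNB replicate 2 left out (0.122% of all tested genes), and 1 with GFP IFNB replicate 1 (0.281%), LTR8B IFNB replicate 1 (0.279%) or LTR8B IFNB replicate 2 (0.226%) left out. In 42 of 43 members the guide effect had the same sign with and without IFNB, the exception being TIMP3, and the effects differed by a median of 0.05 on the log2 scale. These comparisons share no library, but the LTR8B replicates deviated together across treatments, so the signs are not independent. The share of all tested genes with the same sign was not computed, so the agreement is not shown to be particular to the members.

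The interaction of guide and IFNB passed for 0 of 43 members in edgeR, DESeq2 and limma-voom, where 0% of all tested genes passed in edgeR. In edgeR 0 members had an unadjusted p under 0.05, where 2.98% of all tested genes had, and the lowest was 0.264. The largest difference between the responses was in TAGLN (transgelin, an actin-binding protein), at -0.38 with a 95% interval from -1.09 to 0.32. For SNAI2 the difference was 0.23 with an interval from -0.23 to 0.69, so an interaction of that size was not detectable here.

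For several members the range over LTR8B replicates was wider than the fold change between guides. FN1 was at 410.2, 297, 378 and 207 CPM in LTR8B cells with IFNB, against 321 and 459.6 CPM in GFP cells with IFNB, and at 432, 274, 397 and 213 CPM in untreated LTR8B cells, against 294 and 431 CPM in untreated GFP cells. Its order by replicate number was the same with and without IFNB, the LTR8B and GFP ranges overlapped, and the guide effect had a 95% interval from -0.80 to 0.39. MMP1, the interstitial collagenase, was at 26.7, 26.9, 21.2 and 41.3 CPM in LTR8B cells with IFNB, against 22.5 and 12.4 CPM in GFP cells with IFNB, and at 26.4, 27.1, 21.0 and 50.9 CPM in untreated LTR8B cells, against 24.9 and 15.2 CPM in untreated GFP cells. Replicate 4 was its highest LTR8B library in both treatments, and the guide effect of 0.69 did not pass (SE 0.31, adjusted p = 0.341).

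TIMP3, the inhibitor that binds to the matrix, was at 10.9, 17.0, 16.4 and 6.63 CPM in LTR8B cells with IFNB, against 13.2 and 12.9 CPM in GFP cells with IFNB, and at 10.3, 13.4, 16.7 and 4.68 CPM in untreated LTR8B cells, against 10.5 and 11.2 CPM in untreated GFP cells. TAGLN was at 6.94, 6.87, 6.10 and 4.24 CPM in LTR8B cells with IFNB, against 5.10 and 4.62 CPM in GFP cells with IFNB, and at 8.67, 8.03, 7.17 and 4.47 CPM in untreated LTR8B cells, against 4.12 and 4.66 CPM in untreated GFP cells. In both genes LTR8B replicate 4 was lowest in both treatments. Averaged over treatments, the highest LTR8B replicate exceeded the lowest by more than 1.5-fold in 7 members (TIMP3, BGN, MMP1, COL1A2, FN1, TAGLN and THBS2), and replicate 4 was the lowest in 6 of them. This spread between replicates exceeded the fold change between guides in 27 of 43 members, with a median of 1.18-fold. The spread is highest over lowest replicate and the fold change compares group means, so the measures are unlike and the first tends to be larger. The shares of all tested genes for these counts of spread were not computed, so they are not shown to be particular to the members. The same replicate was highest in both treatments in 25 members (58.1%) and lowest in 20 (46.5%), where it was highest in 37.7% and lowest in 38.3% of all tested genes. These shares were not tested against each other. The labels do not say what the replicate numbers stand for, and their part in the guide results beyond the block fit above was not tested.

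**Figure D4:**
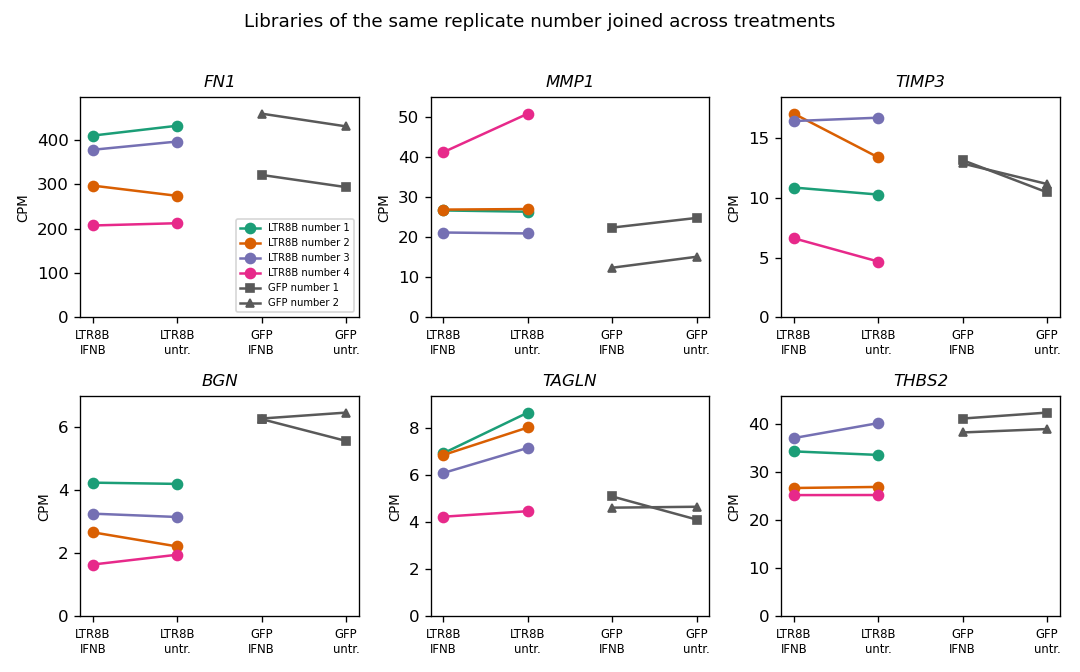
CPM of 6 members in LTR8B and GFP libraries, with a line joining the IFNB library on the left to the untreated library of the same replicate number. For FN1 LTR8B replicate 4 is lowest in both treatments (207 and 213 CPM) and replicate 1 is highest (410.2 and 432 CPM).

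With IFNB at 4 h, averaged over the lines, ZEB2 rose and SNAI2, CCN1 and CCN2 fell, 4 of 43 members (9.30%) where 6.29% of all tested genes passed, a share near that of all genes. Only 1 member rose, where 5.28% of all tested genes did, and 3 fell, where 1.01% did. The median log2 fold change was -0.01 for the members and -0.01 for all tested genes. In the same libraries all 14 tested core interferon-stimulated genes rose, with a median log2 fold change of 5.40. In LTR8B cells ZEB2 rose, where 4.01% of all tested genes did, and SNAI2 and CCN1 fell, where 0.482% did, which makes 3 members where 4.5% of all tested genes passed. In GFP cells ZEB2 rose, where 3.06% of all tested genes did, and SNAI2 fell, where 0.134% did, which makes 2 members where 3.2% passed. With same-numbered libraries of a line blocked in edgeR, 4 members passed in GFP cells, where 4.56% of all tested genes did. Leaving out any 1 GFP library left 0 members and 2.01% to 2.68% of all tested genes. Leaving out LTR8B IFNB replicate 2 left 0 (3.01% of genes), and leaving out LTR8B IFNB replicate 1 or 3 (3.06%) or LTR8B untreated replicate 1 (3.13%) left 1.

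ZEB2, a zinc-finger repressor of E-cadherin, was at 46.6, 47.5, 48.6 and 52.5 CPM in LTR8B cells with IFNB, against 34.8, 39.3, 40.0 and 42.5 CPM in untreated LTR8B cells. In GFP cells it was at 44.5 and 44.01 CPM with IFNB, against 33.7 and 34.4 CPM untreated. No IFNB library overlapped an untreated one of its line (log2 fold change 0.35, SE 0.06, adjusted p = 6.47e-04, past the threshold in every fit without 1 library). SNAI2 was at 13.2, 11.3, 9.92 and 13.5 CPM in LTR8B cells with IFNB, against 17.9, 13.5, 15.7 and 20.004 CPM in untreated LTR8B cells. In GFP cells it was at 6.67 and 7.76 CPM with IFNB, against 11.5 and 12.1 CPM untreated. The LTR8B groups overlapped only at 13.5 CPM and the GFP groups did not overlap (log2 fold change -0.59, SE 0.11, adjusted p = 0.00153, past the threshold in every fit without 1 library). SNAI2 was thus higher with the LTR8B guide and lower with IFNB, and untreated GFP cells (11.5 and 12.1 CPM) stood at levels within the range of LTR8B cells with IFNB.

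CCN1 (chr1:85580761-85583962), an integrin-binding matricellular protein, was at 378, 422, 370.4 and 505 CPM in LTR8B cells with IFNB, against 542, 548, 549.6 and 597 CPM in untreated LTR8B cells. In GFP cells it was at 372 and 422 CPM with IFNB, against 497 and 591 CPM untreated. Neither line's groups overlapped (log2 fold change -0.44, SE 0.08, adjusted p = 0.00152, past the threshold in every fit without 1 library). CCN2 (chr6:131948176-131951373), connective tissue growth factor, was at 165, 126, 136 and 187 CPM in LTR8B cells with IFNB, against 196, 182, 182 and 212 CPM in untreated LTR8B cells. In GFP cells it was at 109 and 123 CPM with IFNB, against 140.4 and 168 CPM untreated. The LTR8B groups overlapped and the GFP groups did not (log2 fold change -0.37, SE 0.10, adjusted p = 0.0362), and the call ended in 8 of 12 fits without 1 library, with a largest adjusted p of 0.185 without GFP untreated replicate 2.

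The promoter letters of a member that fell and of the member that rose are shown to place these results beside the motifs of 2 pathways. CCN1 and SNAI2, the other members that fell, had no promoter window. Capitals mark GGAATG, the core letters recognised by TEAD factors, before CCN2 (chr6:131951373-131951622, minus strand), and the spaced pair of GAAA repeats of the interferon-stimulated response element, GAAA and GAAA with any 2 bases between them, before ZEB2 (chr2:144520120-144520369, minus strand). Each run holds the 250 bases before the RefSeq start on GRCh38.p14.
CCN2: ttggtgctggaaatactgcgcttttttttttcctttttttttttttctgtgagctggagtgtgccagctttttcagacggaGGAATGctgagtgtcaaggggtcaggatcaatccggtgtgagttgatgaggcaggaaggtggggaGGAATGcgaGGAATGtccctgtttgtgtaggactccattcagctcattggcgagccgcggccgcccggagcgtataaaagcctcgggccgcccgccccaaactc
ZEB2: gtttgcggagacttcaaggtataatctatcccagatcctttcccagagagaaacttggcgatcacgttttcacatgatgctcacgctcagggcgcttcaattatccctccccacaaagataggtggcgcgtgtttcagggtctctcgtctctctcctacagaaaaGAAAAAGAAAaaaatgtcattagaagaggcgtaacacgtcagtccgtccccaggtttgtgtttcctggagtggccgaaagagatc
CCN2 held GGAATG at 3 places, starting 169, 104 and 95 bases before the start. Of the 29 member genes with a window 7 held it on either strand, where 14.3% of all genes in the table did. The others were ACTA2, COL12A1, FBN1, SPARC, THBS1 and THBS2, and none of them passed in edgeR for IFNB averaged over the lines. The spaced GAAA pair was held on either strand by 3 of the 29 (ACTA2, ZEB1 and ZEB2), where 3.71% of all genes did. The ZEB2 match lies in a run of A and G bases. CAGGTG, the E-box bound by SNAI and ZEB proteins, was held on either strand by 4 of the 29 (LAMB3, PLAU, SERPINH1 and ZEB1), where 20.6% of all genes did. A match is only a description of the letters.

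**Figure D5:**
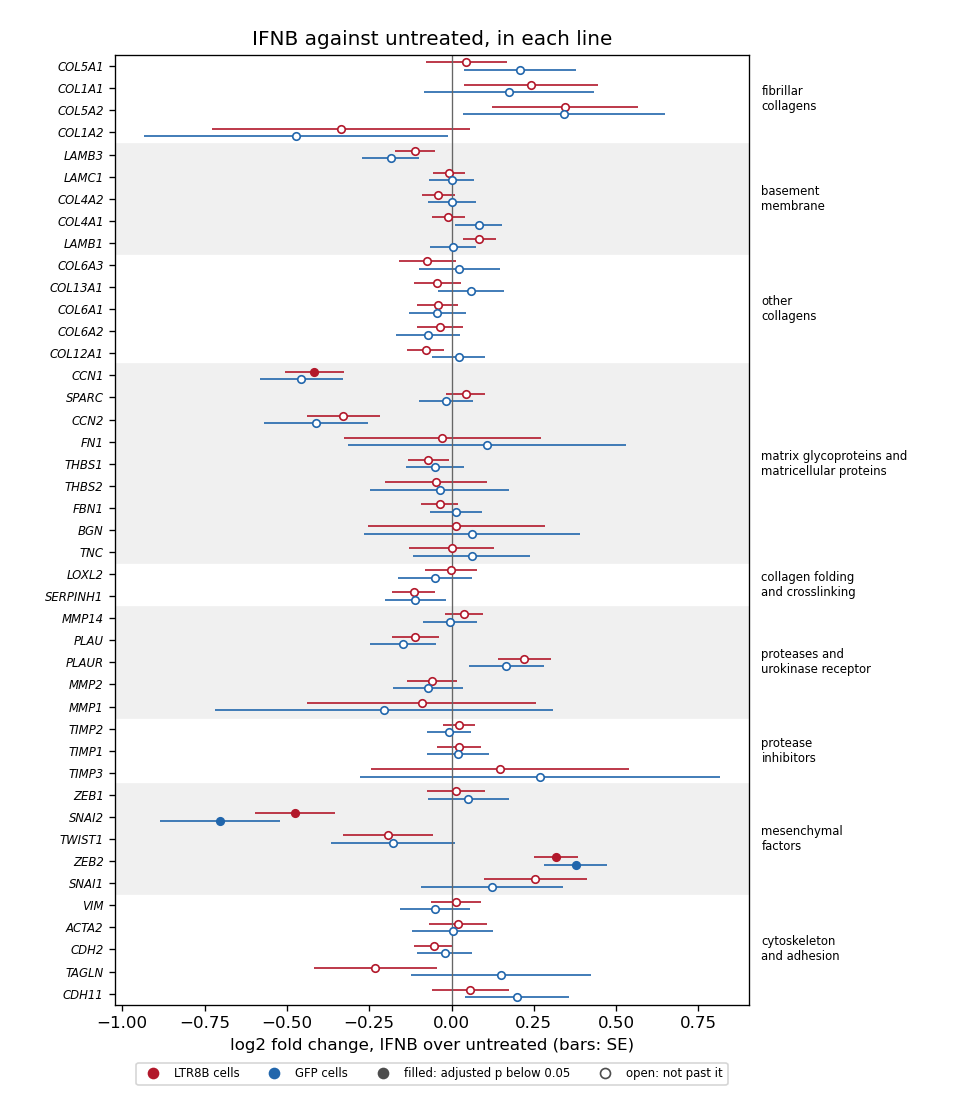
log2 fold change of IFNB over untreated for the 43 tested members in LTR8B cells (upper point of each pair) and GFP cells (lower point), with bars for the SE and filled points past adjusted p 0.05. Most points lie near 0, while ZEB2 is at 0.32 and 0.38 and SNAI2 at -0.48 and -0.70 in LTR8B and GFP cells.

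Of 121 tested genes in 6 lists of neighbouring pathways 11 passed for the guide over both treatments, or 9.09%, where 2.14% of all tested genes did. In the block fit 9 did, or 7.44%, where 1.11% of all tested genes did. These lists too were chosen with earlier results of these data known. Their shares, here and under IFNB, therefore do not show an excess in these pathways. Of 25 tested other structural matrix genes 2 rose, the laminin alpha chains LAMA4 (0.30) and LAMA1 (0.24), and 1 fell, the cartilage protein CILP (-0.93). Of 19 collagen biosynthesis genes 0 rose and 2 fell, ADAMTS2 (-0.97) and PCOLCE (-0.61), which cut and help to cut the propeptides of fibrillar procollagens. ADAMTS2 was at 15.3 ± 4.95 CPM in LTR8B cells with IFNB and 29.5 ± 1.95 CPM in GFP cells with IFNB, and at 15.1 ± 3.41 CPM in untreated LTR8B cells and 29.96 ± 2.07 CPM in untreated GFP cells (SD, n = 4 and 2).

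Of 19 matrix receptors the proteoglycan SDC2 rose (0.72) and the collagen-binding integrin chain ITGA2 fell (-0.36). Of 16 other matrix proteolysis genes the protease inhibitor SERPINE2 rose (0.41), and of 25 TGF-beta signalling genes the receptor TGFBR2 fell (-0.23). Of 17 YAP and TEAD components and targets, a pathway that drives CCN1, CCN2 and ANKRD1, 2 rose: ANKRD1 (0.64) and the kinase LATS2 (0.40). Values in parentheses are log2 fold changes past the edgeR threshold. The block fit ended the calls of LAMA1 (adjusted p = 0.0986) and SDC2 (0.127) and of no other gene named from these lists.

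Under IFNB, averaged over the lines, 8 of the 121 genes passed, or 6.61%, where 6.29% of all tested genes did, and in the block fit 18 did, or 14.9%, where 9.71% did. In edgeR 0 of 19 collagen biosynthesis genes and 0 of 19 matrix receptors passed. The laminin chain LAMA3 rose by 0.80 and the collagenase MMP13 by 1.78 on the log2 scale, MMP13 to 0.749 ± 0.179 CPM in LTR8B cells with IFNB, against 0.260 ± 0.0498 CPM in untreated LTR8B cells, and to 0.899 ± 0.0765 CPM in GFP cells with IFNB, against 0.208 ± 0.0271 CPM in untreated GFP cells. Of the 17 genes of the YAP and TEAD list 4 rose (LATS2, NUAK2, WWTR1 and TEAD2, by 0.22 to 0.84), where 5.28% of all tested genes rose, and 1 fell (AJUBA, by 0.21), where 1.01% fell. In the TGF-beta list the ubiquitin ligase SMURF1 rose by 0.22.

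Markers of other cell types were checked beside these results. Mesenchymal VIM, CDH2, SPARC, ZEB1 and SNAI2 were detected in every library. Of 16 epithelial markers 14 were below 1 CPM in every library, CDH1 (at most 0.265 CPM) and EPCAM (at most 0.155 CPM) among them, and 2 were at 0 throughout. The 16 summed to 363 to 436 CPM in LTR8B cells with IFNB, 384 to 433 CPM in GFP cells with IFNB, 359 to 421 CPM in untreated LTR8B cells and 422 to 446 CPM in untreated GFP cells, with KRT8 and KRT18 far above the rest. Of the 3 tested epithelial markers 0 passed in edgeR in the guide or IFNB average. Muscle markers summed to at most 0.969 CPM. Of 6 tested endothelial markers TIE1 (-0.32) and CDH5 (-1.71) fell with the guide over both treatments. Of 6 tested haematopoietic markers LAPTM5 (-1.12) and CSF1R (-0.57) fell and LCP1 (0.32) rose. These 5 also passed in the block fit. Of all tested genes 2.14% passed in edgeR and 1.11% in the block fit. The marker lists too were chosen with earlier results of these data known, so these counts do not show an excess. The 8 endothelial markers summed to 132 to 156 CPM in LTR8B cells with IFNB, against 164 to 187 CPM in GFP cells with IFNB, and to 135 to 172 CPM in untreated LTR8B cells, against 183 to 185 CPM in untreated GFP cells. The 10 haematopoietic markers summed to 1003 to 1117 CPM in LTR8B cells with IFNB, against 803 to 862 CPM in GFP cells with IFNB, and to 939 to 1122 CPM in untreated LTR8B cells, against 867 to 896 CPM in untreated GFP cells. LCP1 made up most of the haematopoietic sum, with 243730 counts over all libraries against 1559 for CSF1R, the next highest. That sum therefore follows LCP1, while LAPTM5 and CSF1R fell. TIE1 made up most of the endothelial sum, with 36651 counts against 1950 for PECAM1, the next highest. In every library 3 of the 8 endothelial markers, CDH5 among them, and 5 of the 10 haematopoietic markers were below 1 CPM. The part of these genes in the results above was not tested.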

How the data were processed

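RNA-seq was read from 1 table of raw counts per gene, a count for each of 60669 gene identifiers in 12 libraries, as deposited by the authors. Per the submitters' processing notes Salmon 0.13.1, DESeq2 1.38.3 and genome build hg38 were used, with no role or order given. The labels do not state how the authors assigned reads to genes and strands. No row lacked a gene, and every per-sample column was used.

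The 44 members and all other lists were chosen with earlier results of these data known. Symbols, coordinates and transcript lengths came from GENCODE release 29 (hg38), with the longest principal transcript as length, and promoters from RefSeq on GRCh38.p14, where 29 of 44 members had a window.

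Genes were filtered with filterByExpr (minimum count 10, minimum total 15) and scaled by TMM. A robust quasi-likelihood model in edgeR 4.0.16 under R 4.3.3 held 1 mean per group over all 12 libraries and gave 7 contrasts. Standard errors came from the fitted weights and the moderated dispersion. p-values were adjusted by the Benjamini-Hochberg method over 16393 genes, and intervals are 95%. Tested on simulated data with 16393 genes for the guide over both treatments, it recovered 100 of 100 genes changed by 1 and 88 of 100 changed by 0.4 on the log2 scale, with 13 false calls. The simulated libraries were independent, without the pairing by replicate number seen in LTR8B cells. Changed genes were drawn only from those above a set mean level, and each gene was given the spread typical of its level. These counts therefore do not show how the test performs on paired libraries, on scarce members or on members with wider spread. Replicate pairs differed beyond counting noise (chi-square per degree of freedom 2.74 to 17.4), so no library was merged. Floors of 3 counts cover counting error only.

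Members past the threshold in any contrast and the most abundant member of each role are given in full, and other lists by counts with up to 6 named genes. The replicate numbers paired LTR8B libraries across treatments for numbers 1, 2 and 4 (r from 0.408 to 0.527) and weakly for number 3 (r = 0.140). The GFP libraries had r = 0.218. The numbers did not pair libraries across guides (r from -0.37 to -0.0472). Alternatives were DESeq2 1.42.0, limma-voom (limma 3.58.1), other size factors, filters, blocks and leaving out each library. Figures and tables used Python 3.11.15, pandas 2.3.3, NumPy 2.4.6 and matplotlib 3.10.9.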

Additional observations from a re-analysis of the deposited data

Results flagged for a closer look

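In 10 of the 86 groups of 4 LTR8B libraries that were examined (43 members in each treatment), 1 library stood apart from the other 3 by Dixon's criterion, which chance meets in about 1 of 20 groups. That rate holds for normal values in independent groups, while these groups reuse the same libraries, which deviated together across treatments. The share over all tested genes was not computed, so the count is not shown to be unusual. The groups of 2 GFP libraries were too small to examine. LTR8B replicate 4 stood apart in 4 of the 10 cases. With IFNB it was low for COL6A1, at 85.7 CPM where the others were at 100.3 to 102 CPM. SERPINH1 was also low there, at 75.3 CPM where the others were at 86.9 to 88.5 CPM, and still lay above both GFP libraries with IFNB. Untreated, replicate 4 was low for COL6A1 (93.3 CPM, others 102 to 103 CPM) and high for CCN1 (597 CPM, others 542 to 549.6 CPM).

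LTR8B replicate 1 with IFNB was high for COL5A1 (16.2 CPM, others 11.96 to 12.6 CPM) and for LAMB3 (572 CPM, others 529.5 to 531 CPM). LTR8B replicate 2 was high for COL12A1 with IFNB (83.7 CPM, others 76.8 to 77.0 CPM) and for TIMP1 untreated (80.1 CPM, others 69.1 to 69.9 CPM). Untreated LTR8B replicate 3 was low for PLAUR (106 CPM, others 129 to 132 CPM) and for SNAI1 (2.71 CPM, others 3.40 to 3.50 CPM).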

How the results depend on the processing

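Counts of members past the threshold kept within 1.5 times of the main value under the other alternatives run, with these exceptions. The share of all tested genes in the same fit is in parentheses, over 35398 genes without a filter and 16393 otherwise. For the guide with IFNB, 6 passed in DESeq2 (0.732%) and 9 without a low-count filter (0.735%), against 3 (0.354%). Without that filter 11 passed for the guide in untreated cells (0.918%), against 4 (0.36%). For IFNB in LTR8B cells 5 passed without it (2.62%), against 3 (4.5%). For IFNB in GFP cells, 1 passed in limma-voom (3.25%) and 4 without the filter (1.91%), against 2 (3.2%). The counts are therefore not shown to be particular to the members.

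With the replicate block within each guide 4 passed for IFNB in GFP cells, where 4.56% of all tested genes did. With the random replicate block 8 passed for the guide over both treatments (1.11% of all tested genes), against 13 (2.14%). With a fixed replicate block across guides 10 did (1.1%). In that fixed block COL4A1 with IFNB had an adjusted p of 0.0721, LAMB3 untreated 0.1303, and over both treatments COL13A1 0.184, SPARC 0.151, PLAU 0.114, COL1A1 0.212 and CDH11 0.0614. Over all genes the guide count was 181 with the fixed block and 182 with the random block, against 351, and 590 in DESeq2 and 775 of 35398 without a filter. For IFNB over both lines it was 1598 with the block within each guide and 1591 with the random block, against 1031.

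Leaving out 1 library gave 0 to 4 members for the guide in untreated cells, 0 to 4 for the guide with IFNB, 5 to 14 for the guide over both treatments, 2 to 4 for IFNB in LTR8B cells, 0 to 3 for IFNB in GFP cells, 3 to 5 for IFNB over both lines and 0 for the interaction. No named member's call changed direction in any of these fits. With 1 LTR8B library left out, the share of all tested genes past the threshold moved too. It ran from 0.267% to 0.571% for the guide in untreated cells, 0.226% to 0.419% with IFNB and 1.47% to 2.8% over both treatments. For IFNB it ran from 3.67% to 4.26% in LTR8B cells, 3.01% to 3.61% in GFP cells and 5.58% to 6.88% over both lines. The ranges of member counts are therefore not shown to be particular to the members. The cause of these shifts was not tested. The GFP groups held 2 libraries per treatment. Depth was not varied, so its part was not tested.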
